A study of Homo sapiens with 8 samples.

Results

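Caspases, inhibitor of apoptosis proteins (IAPs), death receptors and the apoptosome scaffold were examined in breast cancer stem cells (CSCs) with knockdown of CDH2 or Cx43. The set named 8 genes by their known role, which are CASP2, CASP8, CASP9, APAF1, XIAP, BIRC2, FAS and TNFRSF10B. Of these, 7 were among the 12939 genes with values, and FAS was not analysed here. All groups were MDA-MB-231 cells, an established human triple-negative breast cancer line, that carried a stable pOct4a-GFP reporter kept under G418 and a stable pRFP-C-RS shRNA vector selected with puromycin. The control vector held a scramble shRNA (3 libraries), and the other vectors held CDH2 shRNA (3 libraries) or Cx43 shRNA (2 libraries). CDH2 encodes N-cadherin and Cx43 is the gap junction protein encoded by GJA1. Per the methods, 1 clone, named Clone B, was chosen for the CDH2 knockdown by its efficiency. Cells bright for both GFP and RFP were sorted, left overnight to recover and used for ribosomal RNA-depleted RNA-Seq. Nothing in the labels says that replicates came from separate transfections, so the p-values measure the spread between these libraries.

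Caspases are proteases kept as inactive precursors. Death receptors on the cell surface assemble adaptor complexes that activate caspase-8, whereas cytochrome c released from mitochondria makes APAF1 assemble into the apoptosome, which activates caspase-9. Either initiator then cleaves the executioner caspases, and IAPs hold active caspases and death receptor complexes in check. Transcript levels do not measure the activation of these proteins.

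The values were log2(CPM + 1), in which CPM is the read count scaled to the size of the library. The authors had removed a batch effect among replicates of sequencing, here called the run correction. The labels do not say whether these replicates were separate runs. Summed back to CPM, the libraries held between 684411 and 727083, and the read depth is unknown. The MDA-MB-231 genes VIM, CD44, EGFR, KRT18 and KRT8 lay between 6.63 and 9.81 on this scale in every library. POU5F1, the gene of the sort reporter, lay between 3.57 and 3.85. The markers of other cells that had values were COL1A1 (2.50 to 4.33) and PDGFRB (4.70 to 5.73) of fibroblasts and PECAM1 (1.67 to 2.50) of endothelium. PDGFRB had a mean of 5.58 with scramble, 4.95 with CDH2 shRNA and 4.86 with Cx43 shRNA. In the same order, COL1A1 had means of 3.81, 3.97 and 2.89, and PECAM1 of 2.34, 1.83 and 2.05. The part of these markers in the results was not tested. The knockdown of CDH2 and GJA1 could not be checked, since both transcripts, like ESR1, PGR, PTPRC and CD3E, were not analysed here.

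A feature of the run-corrected values bears on every test. Scramble replicate 1 lay between scramble replicates 2 and 3 in 7 of the 7 genes, at most 0.00982 from their midpoint. In 96.5% of all genes it lay between them. Deviations of same-numbered libraries from their group means cancel, so a difference within a replicate number does not measure how an effect varied between replicates. The residuals after group and replicate number varied in 2 directions, although the model counted 3 residual degrees of freedom. Each call is given with what became of it when the model was held to those 2 directions.

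CASP2, APAF1 and XIAP had the widest ranges of group means among the 7 genes, and the sequence before their RefSeq starts (GRCh38.p14, plus strand) is shown so that their promoters can be compared. CASP2 lies at chr7:143288215-143307696, APAF1 at chr12:98645290-98735433 and XIAP at chrX:123859712-123913972 (hg38, GENCODE 44). The lines give chr7:143288101-143288214, which ends at the annotated gene start of CASP2, then chr12:98645114-98645289, which begins after the first exon of the divergent gene IKBIP, and chrX:123859458-123859707. Capitals mark the GC box (GGGCGG) and the CCAAT box (CCAAT) on either strand.
CASP2: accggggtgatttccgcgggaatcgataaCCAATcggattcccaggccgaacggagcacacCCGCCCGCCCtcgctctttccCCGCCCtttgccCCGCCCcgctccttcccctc
APAF1: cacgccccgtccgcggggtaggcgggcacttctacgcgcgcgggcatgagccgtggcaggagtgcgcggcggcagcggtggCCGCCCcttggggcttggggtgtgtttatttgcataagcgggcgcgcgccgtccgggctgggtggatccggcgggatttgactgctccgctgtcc
XIAP: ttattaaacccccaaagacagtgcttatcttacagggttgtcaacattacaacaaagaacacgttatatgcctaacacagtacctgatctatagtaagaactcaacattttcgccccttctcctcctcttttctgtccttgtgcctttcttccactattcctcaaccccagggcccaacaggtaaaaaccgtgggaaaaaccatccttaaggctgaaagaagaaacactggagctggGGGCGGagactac
The 250 bases before the start of CASP2 held 4 GC boxes, 2 of which overlap, and 2 CCAAT boxes, of which 1 falls after the bases shown. APAF1 had 1 of each, with its CCAAT box before the bases shown, and XIAP had 1 GC box and no CCAAT box. Of 27305 promoters of this length, 42.3% held a GC box and 33% a CCAAT box. The E2F spellings TTTCCCGC, TTTGGCGC and TTTCGCGC were in none of the 3 windows and in 1.42%, 0.553% and 0.469% of all promoters. GC content of the 250 bases was 71.2% for CASP2, 73.6% for APAF1 and 44.8% for XIAP, beside a median of 58% for all promoters. These matches describe the letters of the windows, and no binding was measured.

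In CSCs with CDH2 shRNA, CASP2 and APAF1 were higher than with scramble shRNA, by 1.45-fold and 1.26-fold. Both calls were lost in the model held to 2 residual directions (limma adjusted p = 0.0932 and 0.176). In these bulk libraries a change in the share of cells that express a gene and a change in the level per cell cannot be told apart. The other 5 genes did not pass the test. The 2 calls of 7 genes stand beside 14.3% of all genes called in that comparison at an adjusted p under 0.05. At an unadjusted p under 0.05 the same 2 genes stood beside 37.5% of all genes. Neither reached the fold limit that the methods also set for this comparison, and 2.06% of all genes passed both. Across the 7 genes the median log2 difference was 0.03, and across all genes it was 0.01. In CSCs with Cx43 shRNA, 0 of the 7 genes passed limma's test at an adjusted p under 0.05, beside 1.21% of all genes, or 1.18% with the fold limit as well. XIAP showed the widest Cx43 difference, with a level 1.48-fold lower (adjusted p = 0.129), and XIAP and APAF1 were the 2 genes of 7 under an unadjusted p of 0.05, beside 21.6% of all genes.

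**Figure D1:**
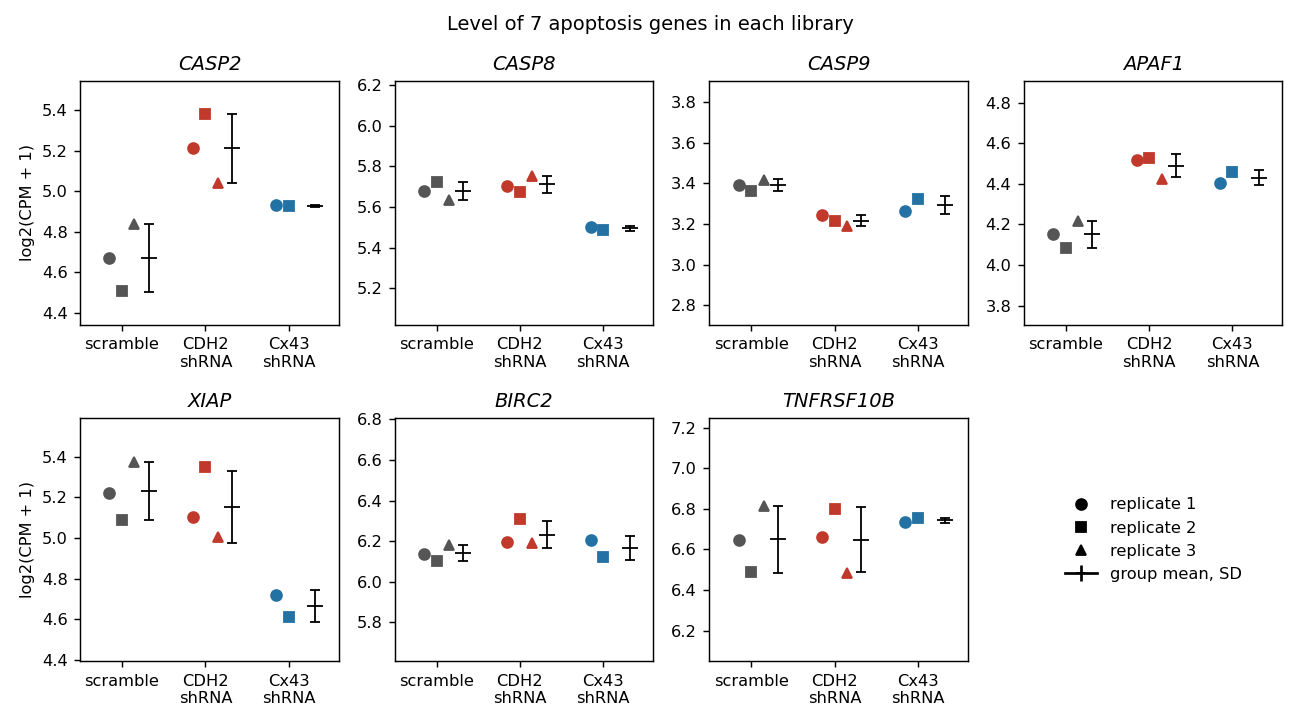
Level of each gene as log2(CPM + 1) in each of the 8 libraries by group, with the shape of a point giving the replicate number and the bar the group mean with its SD (each panel spans the same height). CASP2 and APAF1 lie above scramble in all CDH2 shRNA libraries (3 of 3 each), and XIAP lies below scramble in both Cx43 shRNA libraries, at 4.72 and 4.61.

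Among the initiator caspases, CASP2, a nuclear and cytoplasmic initiator that can be activated on the PIDDosome platform, stood at 4.67, 4.51 and 4.84 with scramble, on the log2(CPM + 1) scale. It was 5.21, 5.38 and 5.04 with CDH2 shRNA and 4.93 and 4.93 with Cx43 shRNA. Every library of either knockdown lay above every scramble library. The log2 difference of CDH2 shRNA from scramble was 0.54 (SE 0.133, 95% confidence interval 0.211 to 0.866, limma adjusted p = 0.0499). Within the same replicate number it was 0.54, 0.87 and 0.20, values that also carry the run correction. For Cx43 shRNA the difference was 0.26 (adjusted p = 0.393).

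CASP8, the initiator recruited to death receptors, was 5.68, 5.72 and 5.64 with scramble, 5.70, 5.68 and 5.75 with CDH2 shRNA, and 5.50 and 5.49 with Cx43 shRNA. The CDH2 shRNA libraries overlapped scramble, and both Cx43 shRNA libraries lay below it. Neither difference passed the test, with log2 values of 0.03 (adjusted p = 0.797) and -0.19 (adjusted p = 0.290). The 95% confidence interval for Cx43 shRNA ran from -0.405 to 0.0324.

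CASP9, the initiator of the mitochondrial route, was 3.39, 3.36 and 3.42 with scramble, 3.24, 3.21 and 3.19 with CDH2 shRNA, and 3.26 and 3.32 with Cx43 shRNA. All knockdown libraries lay below all scramble libraries, by small steps. The differences of -0.18 (adjusted p = 0.141) and -0.10 (adjusted p = 0.552) did not pass the test.

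APAF1, the scaffold on which caspase-9 is activated, was 4.15, 4.09 and 4.21 with scramble, 4.52, 4.53 and 4.42 with CDH2 shRNA, and 4.40 and 4.46 with Cx43 shRNA. No knockdown library overlapped a scramble library. The log2 difference was 0.34 with CDH2 shRNA (SE 0.0821, 95% confidence interval 0.136 to 0.540, adjusted p = 0.0486). Within replicate numbers it was 0.36, 0.44 and 0.21. With Cx43 shRNA it was 0.28 (limma adjusted p = 0.180), and 0.25 and 0.37 within replicate numbers. These differences within replicate numbers also carry the run correction. The APAF1 levels of both knockdowns differed by 0.06 (95% confidence interval -0.179 to 0.295).

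The calls of CASP2 and APAF1 lay just under the threshold and depended on the processing. In the model held to 2 residual directions, the adjusted p was 0.0932 for CASP2 and 0.176 for APAF1. With a pseudocount of 0.1 it was 0.0544 and 0.0514, and with only the compared groups in the model 0.0941 and 0.0944. Leaving out any of CDH2 shRNA replicates 1 and 2, either Cx43 shRNA library or scramble replicates 1 and 2 ended both calls, while leaving out replicate 3 of CDH2 shRNA or scramble kept them. Over the 16 alternatives each was called in 7, with log2 differences of 0.40 to 0.71 for CASP2 and 0.29 to 0.40 for APAF1. These 16 are not all distinct fits, here or for the genes below. Leaving out replicate 3 of CDH2 shRNA or of scramble gives the same fit. For CDH2 shRNA versus scramble, leaving out either Cx43 shRNA library repeats the fit of only the compared groups.

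**Figure D2:**
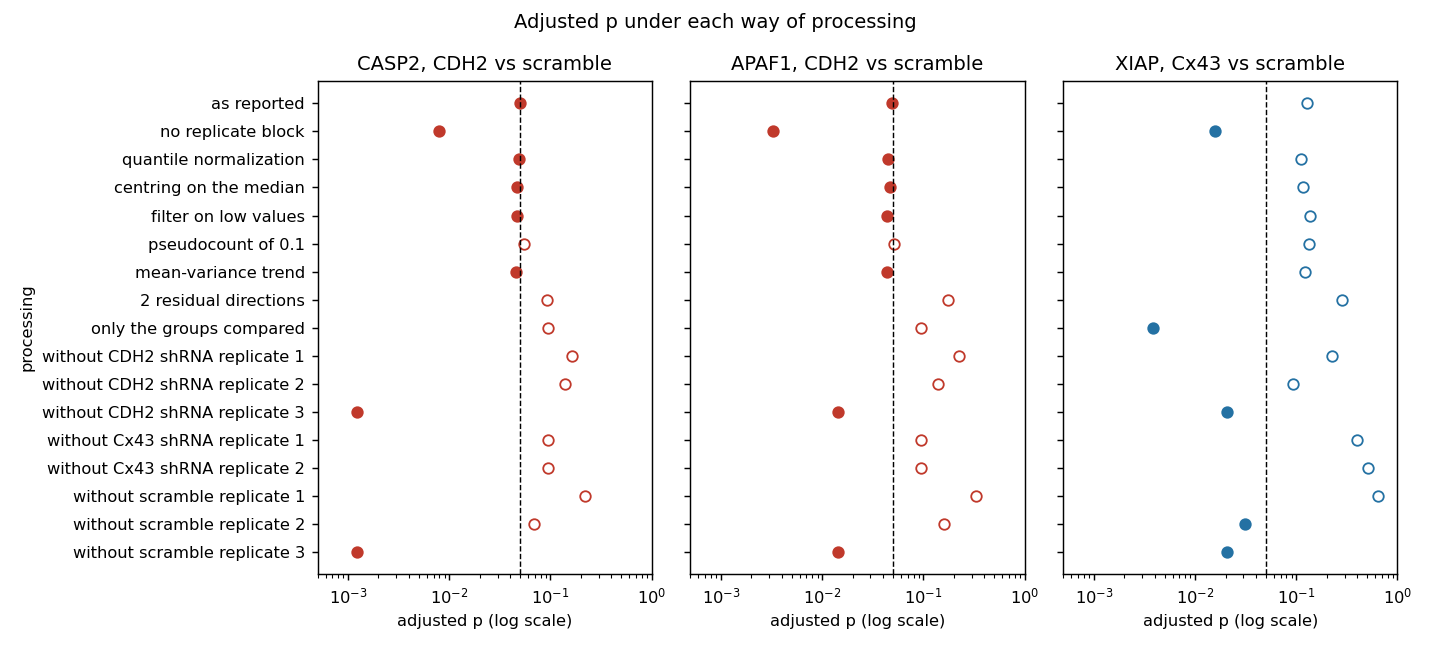
Adjusted p (log axis) of CASP2 and APAF1 for CDH2 shRNA versus scramble and of XIAP for Cx43 shRNA versus scramble, one line per way of processing, with filled points under the dashed threshold of 0.05. The reported values of CASP2 (0.0499) and APAF1 (0.0486) lie at the threshold, and XIAP (0.129) lies above it.

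Among the IAPs, XIAP, which binds and blocks active caspases, caspase-9 among them, was 5.22, 5.09 and 5.38 with scramble, 5.10, 5.35 and 5.01 with CDH2 shRNA, and 4.72 and 4.61 with Cx43 shRNA. The CDH2 shRNA libraries overlapped scramble, and both Cx43 shRNA libraries lay below the other 6. The log2 difference was -0.56 with Cx43 shRNA (SE 0.155, 95% confidence interval -0.945 to -0.184, limma adjusted p = 0.129). Within replicate numbers it was -0.50 and -0.48, values that also carry the run correction. Over 16 alternatives its adjusted p ran from 0.00383, with only the compared groups in the model, to 0.638, without scramble replicate 1, and it passed the test in 5. In the model held to 2 residual directions it was 0.281. The fit with only the compared groups called 21.7% of all genes for Cx43 shRNA. With CDH2 shRNA the difference was -0.08 (adjusted p = 0.697). Within replicate numbers it was -0.12, 0.26 and -0.37, values that also carry the run correction.

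BIRC2, also called cIAP1, is a ubiquitin ligase of the TNF receptor complex. It was 6.14, 6.10 and 6.18 with scramble, 6.20, 6.31 and 6.19 with CDH2 shRNA, and 6.21 and 6.12 with Cx43 shRNA. The groups differed by little, with the CDH2 shRNA libraries just above scramble (log2 difference 0.09, adjusted p = 0.446). Of the Cx43 shRNA libraries, replicate 1 lay just above scramble and replicate 2 among the scramble libraries (0.02, adjusted p = 0.910).

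TNFRSF10B, the TRAIL receptor also known as DR5, lies on chromosome 8. It was 6.65, 6.49 and 6.81 with scramble, 6.66, 6.80 and 6.48 with CDH2 shRNA, and 6.73 and 6.75 with Cx43 shRNA. Both knockdowns overlapped scramble. With CDH2 shRNA the interval of the log2 difference, -0.320 to 0.318 (limma adjusted p = 0.996), was centred near 0. Within replicate numbers the difference was 0.01, 0.31 and -0.33, values that also carry the run correction. With Cx43 shRNA the difference was 0.09 (adjusted p = 0.752).

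**Figure D3:**
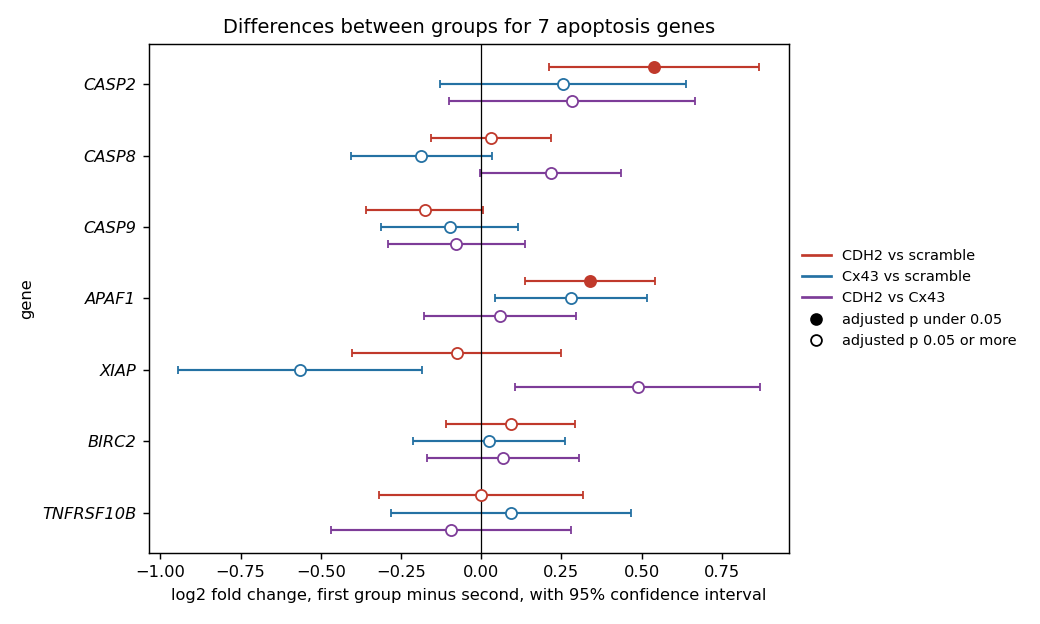
Log2 fold change of each gene with its 95% confidence interval for CDH2 shRNA versus scramble, Cx43 shRNA versus scramble and CDH2 versus Cx43 shRNA, with filled points for an adjusted p under 0.05. CASP2 (0.54) and APAF1 (0.34) are filled for CDH2 shRNA versus scramble, and the interval of XIAP for Cx43 shRNA versus scramble ends at -0.184.

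Counted without a test, 3 of the 7 genes (CASP2, APAF1 and BIRC2) had all CDH2 shRNA libraries above all scramble libraries, where 27.1% of all genes did, and CASP9 alone had them all below, where 24.8% did. For Cx43 shRNA, CASP2 and APAF1 were above in both libraries (31.4% of all genes) and CASP8, CASP9 and XIAP below (21.4% of all genes). The comparisons share the scramble libraries, so a direction found in both is not independent. The share of all genes with both knockdowns on the same side of scramble was not counted. Between the knockdowns, limma called 0 of the 7 genes and 0% of all genes, with 1 of the 7 and 2591 of all genes (20%) at an unadjusted p under 0.05. That gene was XIAP, which was 0.49 higher on the log2 scale with CDH2 shRNA (95% confidence interval 0.107 to 0.869, adjusted p = 0.184). CASP2 differed by 0.28 (adjusted p = 0.361) and CASP8 by 0.22 (adjusted p = 0.253) in the same comparison.

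Levels of different genes were compared as CPM per kilobase of the joined exons of each gene, a scale that assumes that every exon is used. With scramble shRNA, TNFRSF10B was the highest at 19.9 ± 2.27 (SD, n = 3). BIRC2 followed at 15.4 ± 0.427 and CASP8 at 6.95 ± 0.216. XIAP was 3.85 ± 0.393, CASP2 3.07 ± 0.369, APAF1 2.16 ± 0.103 and CASP9 1.80 ± 0.0379. The scramble libraries of neighbours in this order did not overlap. With CDH2 shRNA, CASP2 stood above XIAP, at 4.51 ± 0.538 and 3.65 ± 0.469, and the ranges of this pair overlapped. With Cx43 shRNA, APAF1 (2.65 ± 0.0745, n = 2) and XIAP (2.56 ± 0.147, n = 2) overlapped, while TNFRSF10B, BIRC2, CASP8 and CASP2 took the first 4 places and CASP9 the last.

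XIAP had the widest range of group means, 0.56 on the log2 scale. The 3 genes whose values over the 8 libraries were most like its own were THOC2 (Pearson's r = 0.995), PDE4DIP (0.995) and ATG2A (0.993). The libraries share 1 cell line and 1 run correction, and 82 genes had an r over 0.95. With Cx43 shRNA the log2 differences of THOC2, PDE4DIP and ATG2A were -0.42, -0.34 and -0.21, and with CDH2 shRNA -0.02, -0.02 and -0.04.

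The wider pathway was described with lists of 57 genes grouped by role, of which 40 had values. With CDH2 shRNA, 6 of the 40 passed the test, 3 higher and 3 lower, which is 15% beside 14.3% of all genes. With Cx43 shRNA, 0 of the 40 passed limma's test and 4 were under an unadjusted p of 0.05, beside 21.6% of all genes. Between the knockdowns 0 passed and 8 were under an unadjusted p of 0.05, beside 20% of all genes. The share called among pathway genes was thus close to that among all genes with CDH2 shRNA. The median log2 difference of the 40 was 0.01 with CDH2 shRNA and 0.03 with Cx43 shRNA, against 0.01 and 0.04 for all genes.

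Beyond CASP2 and APAF1, the widest of these changes with CDH2 shRNA was in TNFAIP3, which encodes A20, a ubiquitin-editing brake on NF-kB and death signaling. It was 4.54, 4.48 and 4.61 with scramble, 5.48, 5.61 and 5.45 with CDH2 shRNA, and 4.65 and 4.58 with Cx43 shRNA. The CDH2 shRNA libraries lay apart from the other 5. The level was 1.95-fold higher with CDH2 shRNA than with scramble (log2 difference 0.97, SE 0.0896, adjusted p = 0.0160), the only one of the 40 to pass the fold threshold as well. It was called in 10 of 16 alternatives, with adjusted p from 0.000175 to 0.0836, and kept its call in the model held to 2 residual directions (adjusted p = 0.0195). With Cx43 shRNA it was 0.07 (adjusted p = 0.732), and between the knockdowns 0.90 (adjusted p = 0.115).

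Of the death ligands, receptors and adaptors, 3 genes fell with CDH2 shRNA, and they were TNFSF12, TNFRSF25 and TRADD. TNFSF12, the ligand TWEAK, was 3.28, 3.34 and 3.23 with scramble, 2.80, 2.77 and 2.86 with CDH2 shRNA, and 2.996 and 2.970 with Cx43 shRNA (CDH2 log2 difference -0.47, adjusted p = 0.0254, and Cx43 -0.30, adjusted p = 0.149). TNFRSF25, the death receptor DR3, was 2.105, 1.997 and 2.212 with scramble and 1.69, 1.75 and 1.56 with CDH2 shRNA (-0.44, adjusted p = 0.0428), and lay among the scramble libraries with Cx43 shRNA, at 2.03 and 2.07. TRADD, an adaptor of TNFR1 and DR3, was 4.09, 4.04 and 4.14 with scramble and 3.74, 3.81 and 3.70 with CDH2 shRNA (-0.34, adjusted p = 0.0453), and 4.16 and 4.13 with Cx43 shRNA. In each of these genes all CDH2 shRNA libraries lay below all scramble libraries, where 24.8% of all genes did. The 3 genes were named for being called lower in the same libraries, so this adds no support. In the model held to 2 residual directions none of these kept the call, with adjusted p of 0.0902 for TNFSF12, 0.117 for TNFRSF25 and 0.174 for TRADD. TNFSF12 and TNFRSF25 were low enough to be left out by the filter on low values. With a mean-variance trend TNFRSF25 lost its call (limma adjusted p = 0.0588), while TNFSF12 (0.0271) and TRADD (0.0418) kept theirs.

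By role, 1 of 4 initiator caspases, 1 of 2 apoptosome genes, 0 of 6 IAPs, 0 of 3 antagonists of IAPs, 1 of 5 death receptors, 1 of 1 death ligand and 2 of 15 adaptors and regulators of death complexes passed the test with CDH2 shRNA. Of all genes 14.3% passed it, and lists this short cannot show a difference between roles. The executioner caspase CASP6 was 3.09, 3.02 and 3.17 with scramble, 3.03, 3.13 and 2.97 with CDH2 shRNA, and 3.32 and 3.28 with Cx43 shRNA. Its CDH2 shRNA libraries overlapped scramble and its Cx43 shRNA libraries lay above, where 31.4% of all genes did. The log2 differences were -0.05 (limma adjusted p = 0.698) and 0.21 (adjusted p = 0.312). The inflammatory caspase CASP4 had differences of -0.15 (adjusted p = 0.347) and -0.12 (adjusted p = 0.633). Neither caspase passed the test in either knockdown.

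BIRC6, a giant IAP that is also a ubiquitin-conjugating enzyme, was 6.44, 6.23 and 6.69 with scramble, 7.09, 7.53 and 6.95 with CDH2 shRNA, and 6.79 and 6.56 with Cx43 shRNA. Its CDH2 shRNA libraries lay above scramble, where 27.1% of all genes did, and the log2 difference of 0.74 missed the threshold (limma adjusted p = 0.0622). Within replicate numbers the BIRC6 difference was 0.65, 1.30 and 0.26, values that also carry the run correction. Without CDH2 shRNA replicate 2 the difference was 0.47 (limma adjusted p = 0.112). It was called in 4 of 16 alternatives, with adjusted p from 0.000837 without replicate 3 of CDH2 shRNA or scramble to 0.194 without scramble replicate 1, and was 0.0750 in the model held to 2 residual directions. XAF1, an antagonist of XIAP, had differences of -0.34 with CDH2 shRNA (limma adjusted p = 0.114) and -0.53 with Cx43 shRNA (adjusted p = 0.137). Its CDH2 shRNA libraries lay below scramble, where 24.8% of all genes did. So did its Cx43 shRNA libraries, where 21.4% of all genes did. In the remaining lists the widest differences belonged to TNFRSF21 (DR6) with Cx43 shRNA, at -0.38 (adjusted p = 0.369), the decoy receptor TNFRSF10D, at -0.11 and -0.18, the deubiquitinase CYLD with Cx43 shRNA, at -0.30 (adjusted p = 0.265), and DFFA, the inhibitor of the caspase-activated nuclease, at 0.23 and 0.18. None passed the test.

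**Figure D4:**
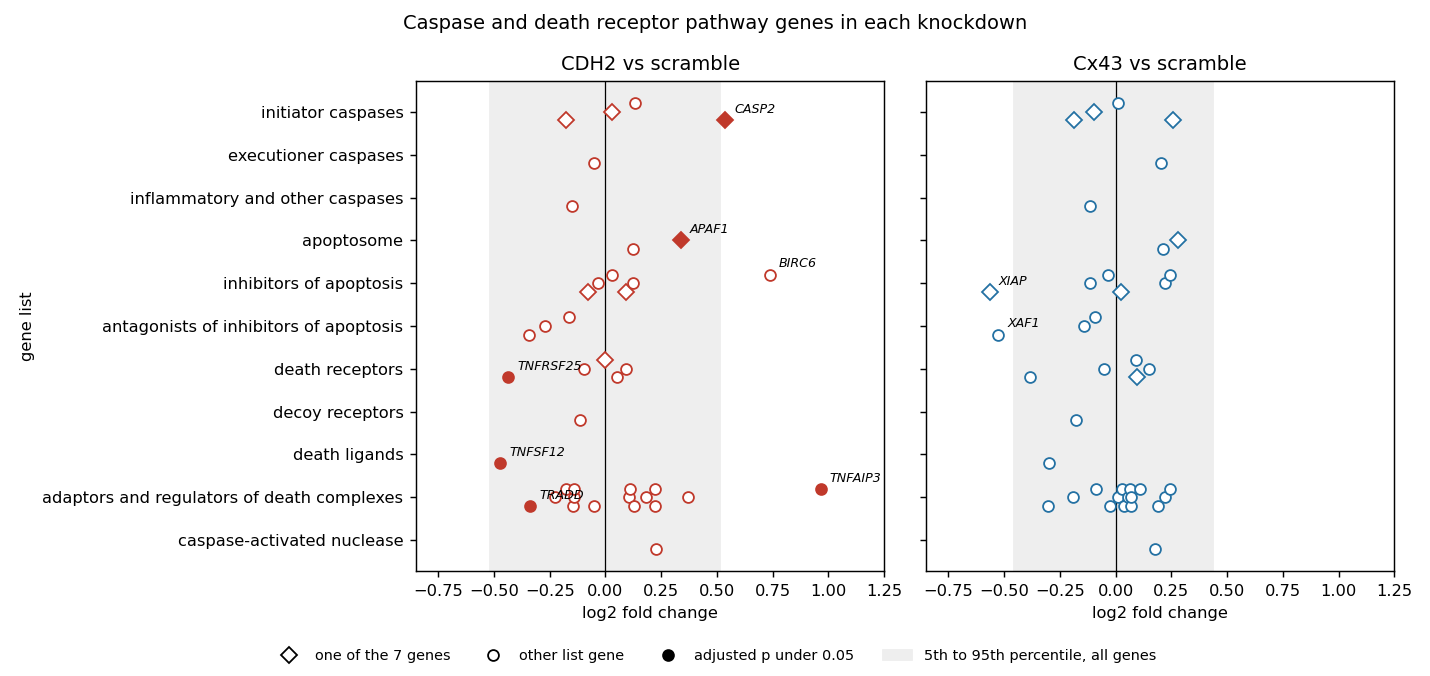
Log2 fold change of each of the 40 measured pathway genes by role, for CDH2 shRNA versus scramble (left) and Cx43 shRNA versus scramble (right), with diamonds for the 7 genes of the set, filled symbols for an adjusted p under 0.05 and a grey band from the 5th to the 95th percentile of all genes. TNFAIP3 (0.97) stands farthest to the right in the left panel, and no symbol is filled in the right panel.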

How the data were processed

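RNA-Seq was analysed in 8 libraries, 3 scramble, 3 CDH2 shRNA and 2 Cx43 shRNA, grouped by the submitters' labels. Per the methods and the submitters' processing notes, the authors aligned reads to hg38 with STAR (version 2.6.1 in the notes) and left out a low-quality sample. They then took the log of CPM plus 1, removed a batch effect among replicates of sequencing and filtered out lowly expressed genes. What was deposited are log2 values of CPM + 1 for 12939 genes, and 1 line without a gene name per library was left out. They hold no counts, so the depth is unknown and the number of libraries limits the precision.

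Testing used lmFit and eBayes of limma 3.58.1 under R 4.3.3. All 8 libraries entered 1 model of group plus replicate number as a block, since the authors had removed a batch effect among replicates of sequencing. The model has 3 residual and 2.84 prior degrees of freedom. The p-values are two-sided, with Benjamini-Hochberg adjustment over all genes. A call is an adjusted p under 0.05, and the 1.66-fold and 1.5-fold limits of the methods were applied separately. The pairing comes from the numbers in the labels. Deviations of same-numbered libraries from their group means cancel to within 1e-04, so the run correction appears to have used these numbers, and same-numbered deviations correlated between -1 and 0.951.

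The genes and lists were chosen with earlier results of these data known. Named by rule were the 8 genes of the set, list genes called in any comparison, the gene with the widest difference of each list in each knockdown, and the 3 genes most like the one with the widest range of group means. NAIP, TNFRSF1A and FAIM were named after their values were seen. Results for some further genes of the rule and lists are not reported here. The alternatives were no block, quantile normalization, median centring, a filter keeping the 75% of genes with the highest mean, a pseudocount of 0.1, a mean-variance trend, only the compared groups, the fold limits, and each library left out. A model held to 2 residual directions was added after seeing the data. Gene models came from GENCODE 44 (exons joined over all transcripts) and promoters from RefSeq, where 7 of the 8 genes matched and the first listed start was used. Figures were drawn with matplotlib 3.10.9 in Python 3.11.15.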

Additional observations from a re-analysis of the deposited data

Results flagged for a closer look

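Of the pathway genes, 3 had all CDH2 shRNA libraries on one side of all scramble libraries and both Cx43 shRNA libraries on the other side. These are 7.5% of the 40 pathway genes, beside 4.78% of all genes (618 of 12939). NAIP, an IAP family member that acts in the inflammasome, was 0.24 higher on the log2 scale with CDH2 than with Cx43 shRNA (limma adjusted p = 0.213). TNFRSF1A, the TNF receptor TNFR1, had a CDH2 minus Cx43 difference of -0.25 (adjusted p = 0.199). FAIM, an inhibitor of Fas-induced death, had a difference of -0.21 (adjusted p = 0.247). Its Cx43 shRNA libraries, at 3.6067 and 3.6042, barely cleared the highest scramble library, at 3.6032. None of the 3 differences passed the test.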

How the results depend on the processing

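Counts of calls depended on how the spread was estimated. For CDH2 shRNA versus scramble, the 2 called genes of the set became 0 with a pseudocount of 0.1, with 2 residual directions, with only the compared groups or with the fold limit, and 0 to 2 when 1 library was left out. The 6 called pathway genes became 1 with 2 residual directions, 0 with only the compared groups, 1 with the fold limit, and 0 to 12 when 1 library was left out. The range ran to 12 without CDH2 shRNA or scramble replicate 3, which give the same fit and call 41% of all genes, and to 0 without scramble replicate 1, CDH2 shRNA replicates 1 or 2 or either Cx43 shRNA library, where at most 0.0773% of all genes were called. With only the compared groups 0% of all genes were called. For Cx43 shRNA versus scramble, the 0 genes of the set became 2 and the 0 pathway genes 4 with only the compared groups, where 21.7% of all genes were called. Leaving out 1 library gave 0 to 1 and 0 to 2, where at most 16.5% of all genes were called. For CDH2 versus Cx43 shRNA, leaving out 1 library gave 0 to 1 gene of the set and 0 to 5 pathway genes, where at most 16.5% of all genes were called, and only the compared groups gave 1 pathway gene, where 4.32% were. The cause was not tested.

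Without the replicate block, 3 genes of the set and 13 pathway genes were called for CDH2 shRNA, 3 and 6 for Cx43 shRNA, and 2 and 9 between the knockdowns. Over all genes the calls without the block were 5607, 3140 and 2784 (43.3%, 24.3% and 21.5%), beside 1846, 156 and 0 with it and 296, 82 and 0 with 2 residual directions. Without the block the model counts 5 residual degrees of freedom in values that vary in 2 directions.

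Among the genes named, changes of sign occurred only in differences that had not passed the test. With quantile normalization CASP8 was -0.0117 for CDH2 shRNA, and BIRC2 was -0.0349 for Cx43 shRNA. With only the compared groups TNFRSF25 was 0.00301 for Cx43 shRNA. Leaving out 1 library, the CDH2 shRNA difference ran from -0.0141 to 0.0651 for CASP8, -0.23 to 0.0694 for XIAP, -0.13 to 0.16 for TNFRSF10B, -0.12 to 0.0235 for CASP6, -0.20 to 0.27 for TNFRSF21, -0.21 to 0.0695 for TNFRSF10D, -0.16 to 0.0883 for CYLD and -0.0533 to 0.46 for DFFA. The Cx43 shRNA difference ran from -0.0387 to 0.0863 for BIRC2, -0.0681 to 0.18 for TNFRSF10B, -0.16 to 0.00301 for TNFRSF25, -0.24 to 0.00692 for CASP4, -0.00535 to 0.39 for BIRC6, -0.54 to 0.19 for TNFRSF10D and -0.0356 to 0.47 for DFFA. The CDH2 versus Cx43 difference of BIRC2 ran from -0.0113 to 0.13. CASP9, CASP6, TNFRSF25, TNFSF12 and NAIP were not tested under the filter on low values.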
